A study of Rattus norvegicus with 4 samples.

Results

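Immediate early transcription factors are the genes Fos, Fosb, Fosl1, Jun, Junb, Egr1, Egr2, Atf3, Ier2 and Ier3, taken here by symbol from the platform annotation of the array. All 10 were found, on 14 probe sets that carry the symbol of 1 gene alone, among 14217 genes so named. They were measured in whole ovaries of rats (Rattus norvegicus) taken at 4 days of age and cultured for 2 days on floating filters. The groups were untreated control ovaries and ovaries given glial cell line-derived neurotrophic factor (GDNF), with 2 samples each, and every sample pooled 6 to 10 ovaries on 1 Affymetrix array. The medium of both groups contained insulin, transferrin, ascorbic acid, serum albumin, albumax and antibiotics. The strain, the dose of GDNF and the time between the last change of medium and lysis are not given in the sources used here. Samples are named control or GDNF with the replicate number 1 or 2 of their titles. What a number marks is not stated, nor whether replicates were cultured separately, so the spread between samples may be partly technical.

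Immediate early genes are transcribed within minutes of a stimulus without new protein synthesis, when kinases such as ERK phosphorylate factors already bound at their promoters. Serum response factor binds the CArG box together with ETS partners such as Elk1, and CREB and ATF proteins bind the cAMP response element (CRE). Their transcripts and proteins are short-lived. Fos and Jun proteins pair through leucine zippers into the AP-1 factor, and Egr proteins bind GC-rich sites through zinc fingers. GDNF acts through the receptor tyrosine kinase Ret, which feeds into ERK. In the ovary, Egr1 and Fos are best known from their response to gonadotropins in granulosa cells.

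The promoters of Egr2 (with a CArG box) and Ier2 (with a CRE and no CArG box) show the letters of this control. That of Junb is given as a member with neither the CArG box nor the full CRE in its window. RefSeq windows of assembly GRCr8, from 250 bases before to 50 bases after the start of the gene, were given for 6 members (Fosb, Fosl1, Egr1, Egr2, Junb and Ier2). Capitals mark the CArG box, the CRE (TGACGTCA) and its shorter core (TGACG, or CGTCA on the other strand), and each run reads 5′ to 3′ along the gene. Egr2 lies on the minus strand at chr20:21054392-21054691, Ier2 on the plus strand at chr19:40399123-40399422 and Junb on the plus strand at chr19:40080876-40081175.
Egr2: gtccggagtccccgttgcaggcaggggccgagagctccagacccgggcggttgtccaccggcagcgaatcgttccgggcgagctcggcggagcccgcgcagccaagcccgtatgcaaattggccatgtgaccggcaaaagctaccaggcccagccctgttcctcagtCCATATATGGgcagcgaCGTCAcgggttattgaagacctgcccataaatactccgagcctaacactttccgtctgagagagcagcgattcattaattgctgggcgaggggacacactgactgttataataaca
Ier2: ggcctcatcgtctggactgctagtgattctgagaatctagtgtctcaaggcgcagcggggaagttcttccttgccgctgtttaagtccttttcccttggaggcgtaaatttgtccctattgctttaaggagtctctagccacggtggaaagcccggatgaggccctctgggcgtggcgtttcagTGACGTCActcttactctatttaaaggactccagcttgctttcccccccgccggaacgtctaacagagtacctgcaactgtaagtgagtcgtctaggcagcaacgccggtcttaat
Junb: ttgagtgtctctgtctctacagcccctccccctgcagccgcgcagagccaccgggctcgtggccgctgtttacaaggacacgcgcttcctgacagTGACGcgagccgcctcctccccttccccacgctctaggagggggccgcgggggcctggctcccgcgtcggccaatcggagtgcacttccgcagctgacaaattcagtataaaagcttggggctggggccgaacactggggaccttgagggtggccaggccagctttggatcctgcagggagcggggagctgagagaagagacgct

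The windows of Egr1 and Egr2 each held the CArG box CCATATATGG with its first base 83 bases before the start. Each also held the shorter CRE core, CGTCA, beginning 66 bases before the start, and neither held the full CRE. Egr1 held a further CArG box, CCATATTAGG, 105 bases before the start. Of 33469 windows of this length, 1.64% held a CArG box and 2 of the 6 member windows did. The full CRE was present in the window of Ier2, 66 bases before the start, and in 1.83% of all windows. The shorter CRE core, which the full CRE contains, was in 5 of the 6 member windows, all but that of Fosb, and in 21.2% of all. The AP-1 site TGANTCA, searched on both strands like the others, was in 0 of the 6 and in 7.33% of all windows. These matches are letters in a window and were not tested for binding.

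No member passed the test between GDNF and control ovaries. Ier2 was the only tested member without overlap between the treatments, lower in GDNF, and the others had samples of both groups within the same range. By treatment 16.6% of all probe sets tested were lower and 13.4% higher without overlap. By replicate number the samples of most members lay apart. Fos, Jun, Egr1, Egr2, Atf3 and Ier3 were each lower in both replicate 2 samples than in either replicate 1 sample, by 1.15 to 1.66-fold. Of all probe sets tested, 22.6% were likewise lower without overlap and 20.9% higher. No probe set of a member passed the threshold in the fit on the number alone. With the treatment added to that fit as a block, Fos and 1 probe set of Jun passed, as did 2.3% of all probe sets, in a fit with 1 residual degree of freedom.

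**Figure D1:**
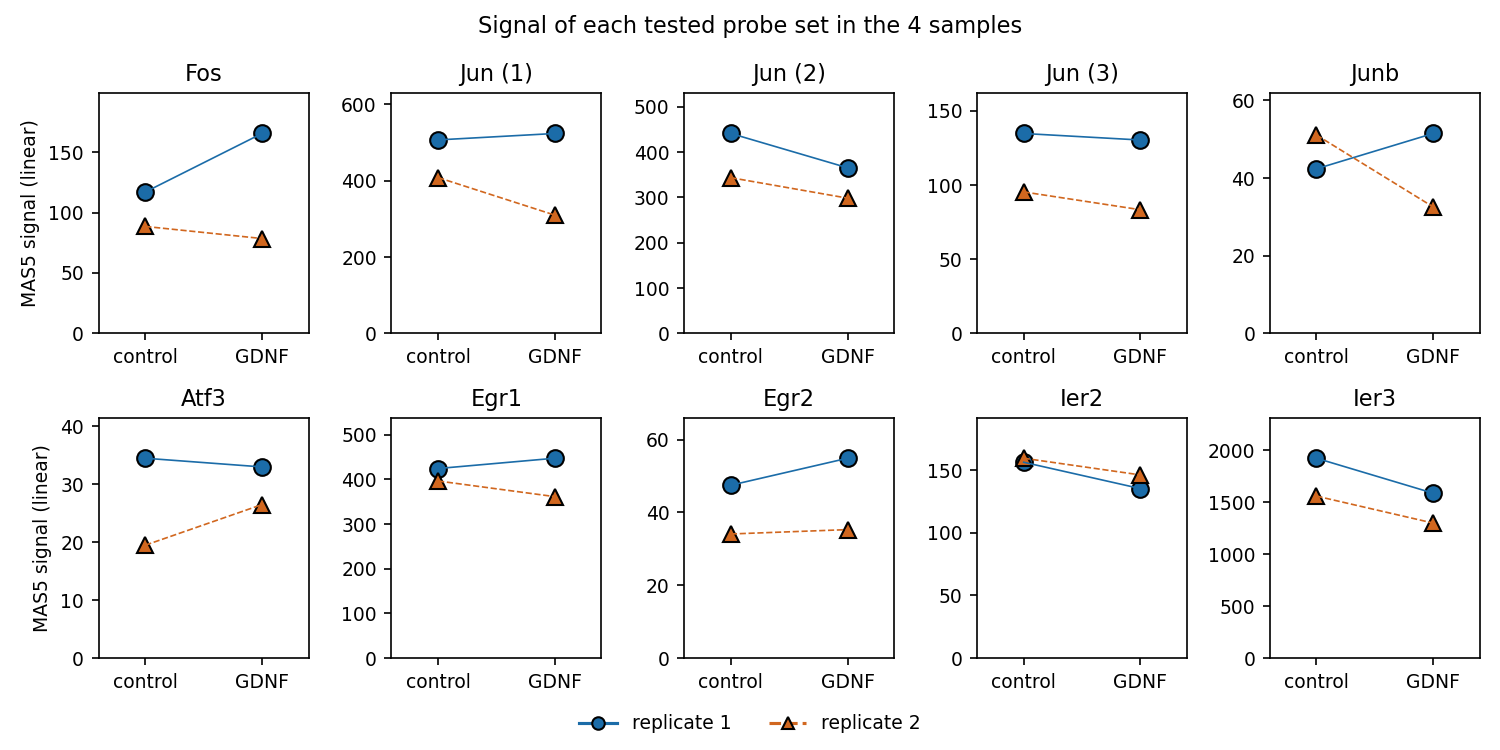
Linear MAS5 signal of the 10 tested member probe sets in the 4 samples, control on the left and GDNF on the right of each panel, with circles and solid lines for replicate 1 and triangles and dashed lines for replicate 2. Jun (1), (2) and (3) are its probe sets in order of mean signal, and in 8 of the 10 panels both triangles lie below both circles.

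Of the 14 probe sets, 10 passed the filter on mean signal (a signal of about 21.4 over the 4 samples, the 40th percentile), and they measured 8 of the 10 genes. Signals are linear array intensities, and differences are given on the log2(signal + 1) scale with limma's standard error, two-sided p and 95% interval. Adjusted p is by Benjamini-Hochberg over the 18625 probe sets tested. With 2 samples against 2, an exact permutation test of a single gene cannot give a p below 0.333, so the number of arrays limits every comparison. In pooled whole ovaries, fewer cells that express a gene and less RNA per cell cannot be told apart.

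Fos, the partner that Jun needs for its strongest DNA binding, had the widest gap between the numbers. Its signal was 117 in control 1, 88.5 in control 2, 165 in GDNF 1 and 78.5 in GDNF 2. Both replicate 2 samples lay below both replicate 1 samples, and GDNF 1 was the highest. The mean was 141 ± 34.2 in replicate 1 and 83.5 ± 7.07 in replicate 2 (SD, n = 2 each), a log2 difference of -0.73 (SE 0.19, interval -1.14 to -0.32, limma adjusted p = 0.141). With the treatment as a block the adjusted p was 0.0399. Leaving out 1 sample leaves 1 sample on a side, assumed to vary like the others. Without control replicate 1, where GDNF 1 alone stands for replicate 1, the difference was -0.98 (limma adjusted p = 0.0217). Without control replicate 2, GDNF replicate 1 or GDNF replicate 2 it did not pass (limma adjusted p = 0.166, 0.413 and 0.821). By treatment the means were 103 ± 20.2 in control and 122 ± 61.4 in GDNF (SD, n = 2 each), a log2 difference of 0.16 (SE 0.34, interval -0.63 to 0.96, limma adjusted p = 0.999). That direction turned to -0.37 without GDNF replicate 1 and to -0.04 without control replicate 2. A further Fos probe set was near 0 in every sample, at 4.5, 2.2, 4.9 and 6.9 in the same order, and was not tested.

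Fosb and Fosl1, the other Fos family members, lay below the filter. Fosb had signals of 2.3 in control 1, 0.4 in control 2, 5.2 in GDNF 1 and 7.2 in GDNF 2. Signals this dim are noisy after the mismatch subtraction of MAS5, and no test was made. Fosl1, which lacks the transactivation domain of Fos, had 20.4 in control 1, 16.1 in control 2, 23.9 in GDNF 1 and 14.3 in GDNF 2. Atf3 was the dimmest tested member, and Fosl1 lay under the filter of about 21.4. Its replicate 2 samples were below its replicate 1 samples and its treatments overlapped, with no test. The other probe sets below the filter overlapped by number. Among these, Fosb and the further Fos probe set were higher in both GDNF samples than in either control. A further Egr2 probe set was lower in both, also with no test. How many of all probe sets below the filter lay apart in this way was not counted.

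Jun, the AP-1 subunit that can also pair with itself, was measured by 3 probe sets, of which 2, the brightest and the dimmest, were designed on the same accession. They are therefore not independent readings. The brightest had 507 in control 1, 408 in control 2, 524 in GDNF 1 and 310 in GDNF 2. The second had 441, 343, 365 and 298 in that order. The dimmest had 135, 95.4, 130 and 83.4. GDNF 2 was the lowest sample and control 2 the next lowest in all 3, so the numbers did not overlap in any of them.

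The log2 difference of Jun between replicate 2 and replicate 1 was -0.53 (SE 0.13, interval -0.82 to -0.24), -0.33 (SE 0.13, interval -0.61 to -0.05) and -0.57 (SE 0.16, interval -0.91 to -0.22) in those probe sets. The limma adjusted p was 0.13, 0.314 and 0.176. With the treatment as a block the brightest passed (limma adjusted p = 0.0168) and the others did not (0.118 and 0.0783). By treatment the log2 differences were -0.17 (SE 0.24), -0.24 (SE 0.16) and -0.12 (SE 0.26), each with overlap and an adjusted p of 0.999. Without GDNF replicate 2 the first and the third turned, to 0.20 in each.

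Junb, which opposes Jun at many AP-1 sites, followed neither the treatment nor the number. Its signal was 42.4 in control 1, 51.1 in control 2, 51.5 in GDNF 1 and 32.6 in GDNF 2. The log2 difference was -0.18 (SE 0.28, interval -0.84 to 0.48) by treatment and -0.19 (SE 0.26, interval -0.75 to 0.37) by number, with overlap in each. Both directions rest on GDNF replicate 2, without which they were 0.14 and 0.13.

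Atf3, a stress-induced factor that pairs with Jun proteins, was dim. It had 34.5 in control 1, 19.5 in control 2, 33.0 in GDNF 1 and 26.5 in GDNF 2. The numbers did not overlap and the treatments did. The log2 difference was -0.55 (SE 0.27, interval -1.13 to 0.04, limma adjusted p = 0.428) by number and 0.18 (SE 0.34, interval -0.63 to 0.99) by treatment. The treatment difference was 0.58 without control replicate 1 and -0.22 without control replicate 2.

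Egr1, the zinc finger factor of the first wave, differed least among the members whose numbers did not overlap. It had 424 in control 1, 396 in control 2, 447 in GDNF 1 and 361 in GDNF 2. Replicate 1 averaged 436 ± 16.3 and replicate 2 averaged 379 ± 24.7 (SD, n = 2 each), a log2 difference of -0.20 (SE 0.11, interval -0.44 to 0.04, limma adjusted p = 0.481). By treatment it was -0.03 (SE 0.14, interval -0.35 to 0.29), which turned to 0.12 without GDNF replicate 2.

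Egr2, a relative of Egr1 known from myelination and hindbrain patterning, had 47.5 in control 1, 34.1 in control 2, 54.9 in GDNF 1 and 35.3 in GDNF 2. Both replicate 2 samples were again the lowest. The log2 difference by number was -0.54 (SE 0.22, interval -1.03 to -0.06, limma adjusted p = 0.329), and by treatment 0.13 (SE 0.30, interval -0.58 to 0.83). Egr2 was thus lower by 1.46-fold and Egr1 by 1.15-fold. The difference between these folds was not tested. The other Egr2 probe set was near 0, at 4.9, 5.0, 1.8 and 0.7, and was not tested.

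Ier2, a nuclear protein induced with Fos, was, with Junb, a member whose samples overlapped by number. Its signal was 156 in control 1, 159 in control 2, 135 in GDNF 1 and 146 in GDNF 2. Both GDNF samples were below both control samples, as for 16.6% of all probe sets tested. The means were 158 ± 2.26 in control and 141 ± 7.71 in GDNF (SD, n = 2 each). That is a log2 difference of -0.17 (SE 0.14, interval -0.49 to 0.16, limma adjusted p = 0.999). By number it was 0.07 (SE 0.15, interval -0.25 to 0.39), which turned to -0.03 without GDNF replicate 1.

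Ier3, a regulator of survival signalling that is not itself a DNA-binding factor, had 1924 in control 1, 1560 in control 2, 1588 in GDNF 1 and 1300 in GDNF 2. Within each treatment replicate 2 was lower, and within each number GDNF was lower. The log2 difference was -0.30 by number (SE 0.12, interval -0.56 to -0.03, limma adjusted p = 0.329), without overlap. It was -0.27 by treatment (SE 0.14, interval -0.61 to 0.07, limma adjusted p = 0.999), with overlap. With the replicate number as a block its adjusted p for the treatment was 0.51.

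**Figure D2:**
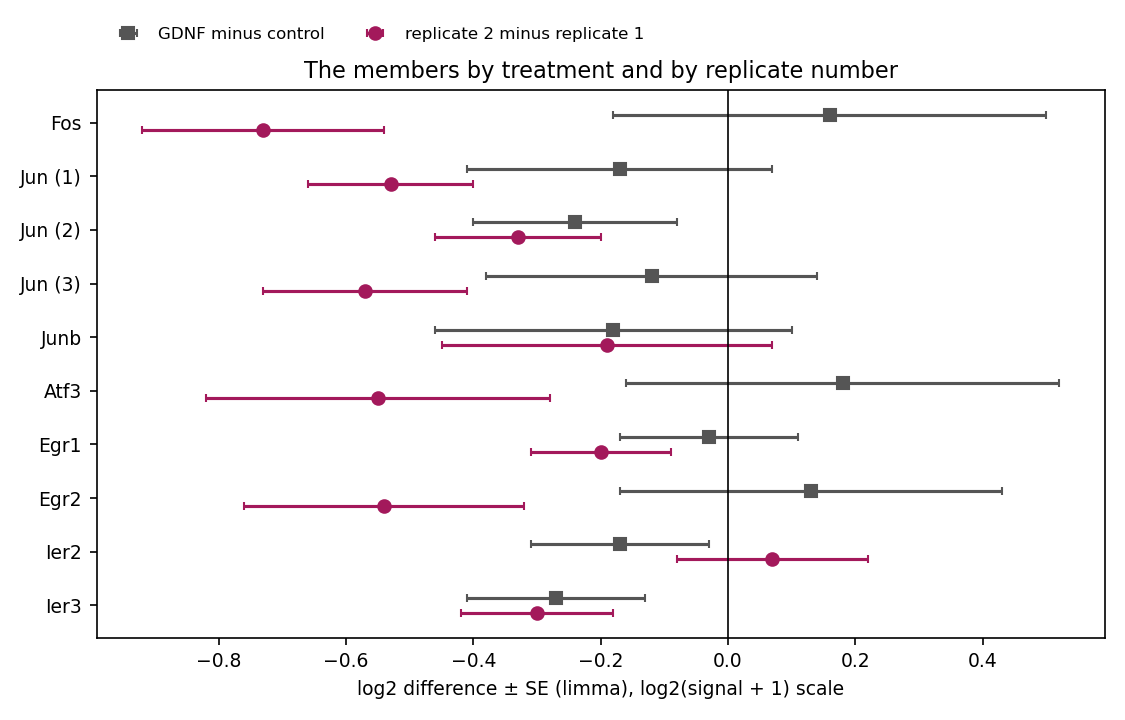
Log2 difference ± SE of each tested member probe set, with squares for GDNF minus control and circles for replicate 2 minus replicate 1, on the log2(signal + 1) scale. The squares lie between -0.27 and 0.18 around 0, and 9 of the 10 circles lie below 0, down to -0.73 for Fos.

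Counted over the 10 tested probe sets, 3 were higher and 7 lower in GDNF, where 51.5% of all probe sets tested were lower. Of the 10, 1 was lower without overlap and 0 higher, against 16.6% lower and 13.4% higher of all probe sets tested. In the limma fit 0 members and 0% of all probe sets passed the adjusted threshold, and 0 members had an unadjusted p under 0.05 against 2.73% of all. With the replicate number as a block 0 members passed, against 0.043% of all (8 probe sets). The median log2 difference over the 8 genes, by the brightest probe set of each, was -0.10, beside -0.01 over all probe sets. It was 0.17 without GDNF replicate 2 and -0.28 without GDNF replicate 1. The count of lower probe sets ran from 3 without GDNF replicate 2 to 10 without control replicate 2, so it follows which sample is left out.

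By replicate number, 1 member probe set was higher and 9 lower in replicate 2, and 8 were lower without overlap. Over all probe sets tested 52.5% were lower. Among all probe sets tested 22.6% were lower without overlap and 20.9% higher. The 8 come from 6 of the 8 genes, since Jun gives 3. An unadjusted limma p under 0.05 in the lower direction was reached by 6 member probe sets, against 7.38% of all. They were those of Fos, Egr2 and Ier3 and the 3 of Jun, which are not independent. With median centring 3 member probe sets had an unadjusted p under 0.05. The adjusted threshold was passed by 0 members, against 0.462% of all (86 probe sets). With the treatment as a block 2 members passed, against 2.3% of all (429 probe sets), in a fit with 1 residual degree of freedom. The median over the 8 genes was -0.41, beside -0.01 over all probe sets. Leaving out each sample in turn, 8 to 10 of the 10 probe sets were lower in replicate 2, and the median was smallest, -0.25, without GDNF replicate 2.

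Within the treatments the numbers differed in the same direction for most members. Replicate 2 minus replicate 1 was -0.40 in control and -1.07 in GDNF for Fos, on the log2 scale, with 1 sample a side and no test. It was -0.47 and -0.62 for Egr2, -0.79 and -0.31 for Atf3, -0.10 and -0.31 for Egr1 and -0.30 and -0.29 for Ier3. The 3 Jun probe sets had -0.31 and -0.75, -0.36 and -0.29, and -0.49 and -0.64. Junb was the member with opposite signs, 0.26 in control and -0.64 in GDNF. Ier2 was 0.03 and 0.11. Read the other way, GDNF minus control for Fos was 0.50 within replicate 1 and -0.17 within replicate 2. For Ier3 it was -0.28 and -0.26.

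**Figure D3:**
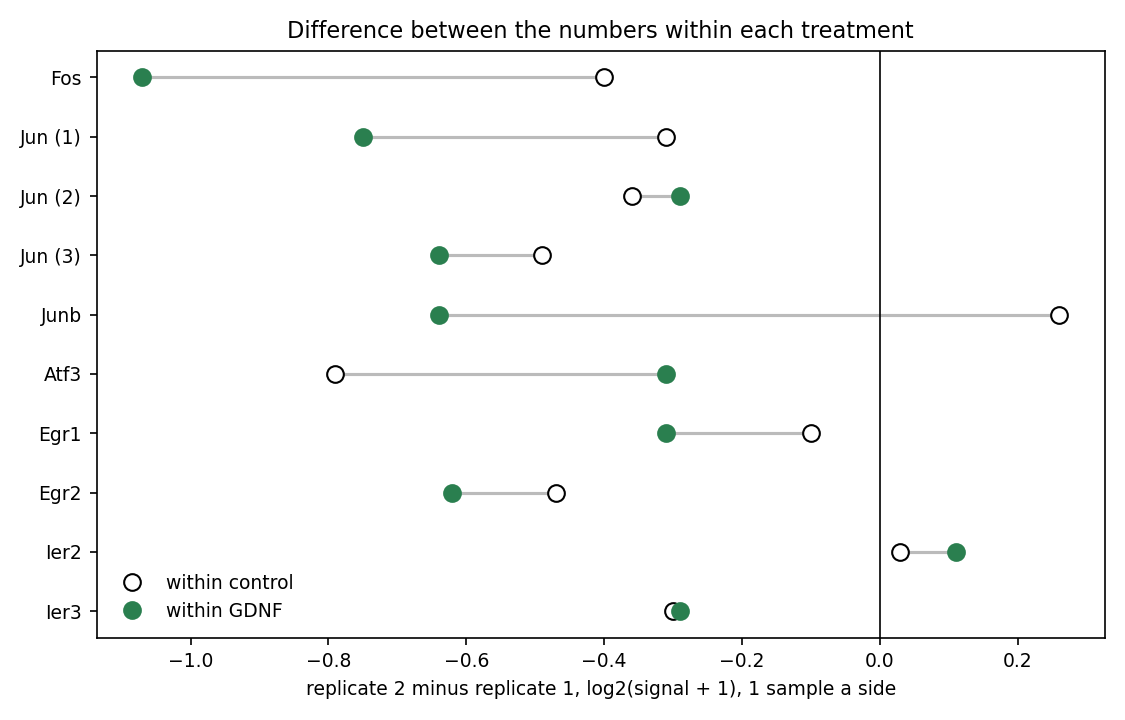
Replicate 2 minus replicate 1 on the log2(signal + 1) scale for each tested member probe set, open circles within control and filled circles within GDNF, with 1 sample a side and no error. Both circles lie below 0 for every probe set but those of Junb, which straddle 0, and Ier2, which are above it.

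Other immediate early genes were examined from a list of 25, of which 24 had a probe set and 17 were tested. By number 13 were lower and 4 higher in replicate 2, with 8 lower and 1 higher without overlap. Of all probe sets tested 52.5% were lower, with 22.6% lower and 20.9% higher without overlap. The median log2 difference was -0.10, beside -0.01 over all probe sets. None of the 17 passed in the limma fit, where 4 had an unadjusted p under 0.05, against 2388 of all 18625 probe sets. The lowest were Nr4a1, an orphan nuclear receptor, and Klf6, a zinc finger factor. Nr4a1 had 43.1 in control 1, 27.8 in control 2, 44.4 in GDNF 1 and 28.4 in GDNF 2, a log2 difference of -0.62 (SE 0.23, limma adjusted p = 0.294). Klf6 had -0.55 (SE 0.15, limma adjusted p = 0.163). Klf4, chosen after its values were seen, was the 1 gene of the list to pass with the treatment as a block (-0.41, limma adjusted p = 0.0475), where 2.3% of all probe sets passed. The highest were Nr4a2 (0.37, SE 0.27) and Ccn2 (0.24, SE 0.18).

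By treatment the same list had 6 higher and 11 lower, with 3 higher and 2 lower without overlap. Of all probe sets tested 51.5% were lower, with 13.4% higher and 16.6% lower without overlap. The median of the list was -0.04, beside -0.01 over all probe sets. None passed in the limma fit, and 1, Ccn2, had an unadjusted p under 0.05, against 2.73% of all probe sets. Ccn2, a matricellular protein induced by serum and by TGF-beta, was the highest. It had 488 in control 1, 523 in control 2, 623 in GDNF 1 and 809 in GDNF 2, a log2 difference of 0.49 (SE 0.14, limma adjusted p = 0.999). It was followed by Klf2 (0.32, SE 0.21), and the lowest were Klf4 (-0.40, SE 0.19) and Dusp1, a phosphatase that ends MAP kinase signals (-0.26, SE 0.18).

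**Figure D4:**
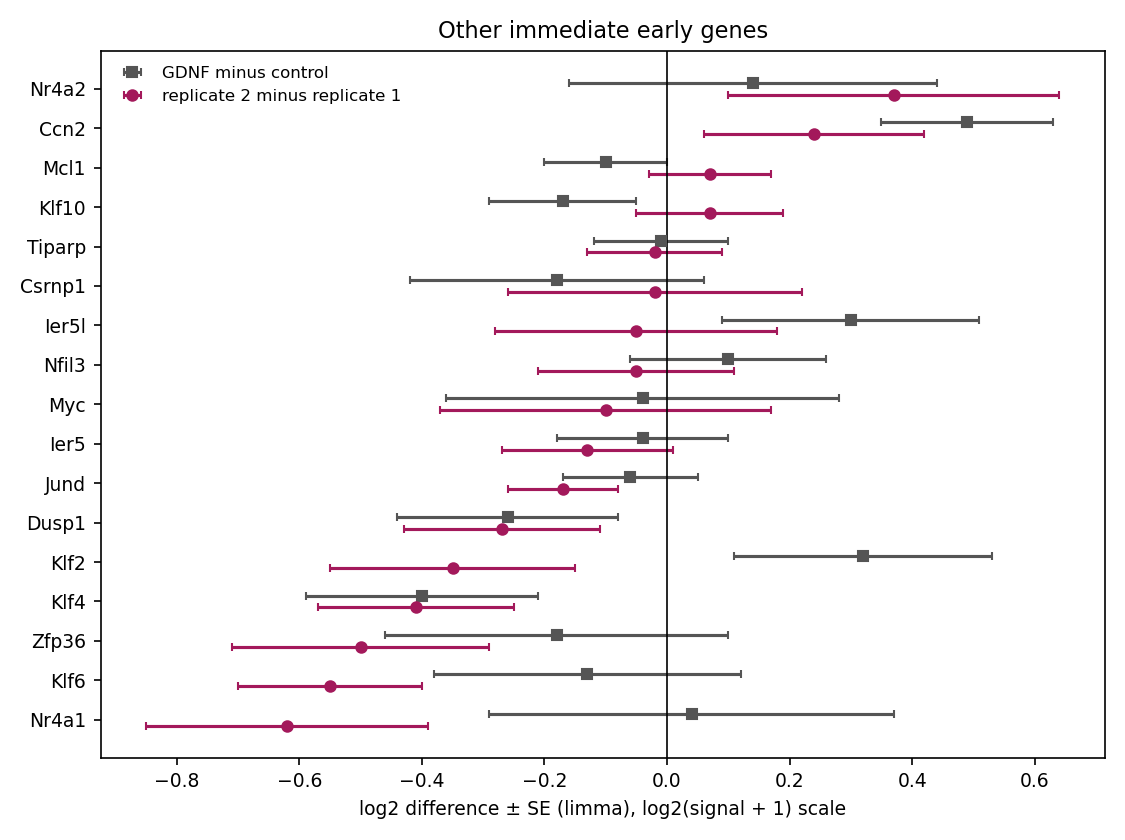
Log2 difference ± SE of the 17 tested genes of the list of other immediate early genes, squares for GDNF minus control and circles for replicate 2 minus replicate 1, ordered by the latter. The circles run from -0.62 for Nr4a1 to 0.37 for Nr4a2, and the highest square is Ccn2 at 0.49.

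The kinases and factors that act on these promoters had no common direction. Of 18 listed, 14 were tested, with 8 higher and 6 lower by number (median 0.01) and 7 higher and 7 lower by treatment (median -0.01). None passed in the limma fit. An unadjusted p under 0.05 was reached by 2 by number and 0 by treatment, against 2388 and 508 of all 18625 probe sets. By number Map2k2 (0.28, SE 0.12) and Elk1 (0.27, SE 0.19) were the highest, and the ribosomal S6 kinase Rps6ka3 (-0.33, SE 0.11) and Elk3 (-0.24, SE 0.12) the lowest. By treatment Rps6ka5 (0.26, SE 0.25) and Creb1 (0.23, SE 0.25) were the highest, and Elk3 (-0.14, SE 0.14) and Map2k1 (-0.12, SE 0.11) the lowest. Srf itself had 203 in control 1, 199 in control 2, 207 in GDNF 1 and 216 in GDNF 2. Of 8 AP-1 partners and Egr co-repressors, 5 were tested and none passed in the limma fit (0 with an unadjusted p under 0.05). By number 4 were lower and 1 higher (median -0.14), led by Nab2, a co-repressor of Egr1 (-0.29, SE 0.16), and Cebpb (-0.26, SE 0.13), with Nab1 at 0.00. By treatment they ran from -0.15 (SE 0.18) for Nab2 to 0.13 (SE 0.27) for Atf2.

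Sums of cell type markers also differed between the samples, some by number and some by treatment. The summed signal of 9 macrophage and leukocyte markers was 1231 in control 1, 972 in control 2, 1216 in GDNF 1 and 837 in GDNF 2, and lay apart by number. Of these markers 7 were tested. By number all 7 were lower in replicate 2, 4 of them without overlap. By treatment 6 were lower, 3 of them without overlap, and 1 was higher. The sum of 7 surface epithelium and mesothelium markers was 7347, 6143, 5882 and 5385, which overlapped by number and was lower in both GDNF samples. By number 7 of 7 were lower, 4 without overlap, and by treatment 7 of 7 were lower, 3 without overlap. The sum of 8 adipocyte markers was 302, 169, 240 and 158, of which 2 were tested. Both were lower by number, without overlap, and lower by treatment, with overlap, while Adipoq and Plin1 were below the filter in the mean. That of 7 oocyte markers was 4008, 5015, 5329 and 6696, higher in both GDNF samples and overlapping by number. By treatment 7 of the 7 were higher, 4 without overlap (median 0.56), and by number 6 were higher, 2 without overlap, and 1 lower (median 0.32). Of all probe sets tested 13.4% were higher and 16.6% lower without overlap by treatment, and 20.9% higher and 22.6% lower by number. With or without overlap, 51.5% were lower by treatment and 52.5% by number. By treatment 0 of the 7 oocyte markers passed in the limma fit and 3 had an unadjusted p under 0.05. With the replicate block 1 of them passed, against 0.043% of all probe sets. It was Gdf9 (limma adjusted p = 0.0469), an oocyte growth factor named here after its value was seen. Of 11 heat shock and cell stress genes tested, 8 were lower and 3 higher by number (median -0.16), with 1 lower and 1 higher without overlap. By treatment 8 were lower and 3 higher, with 4 lower and 1 higher without overlap. The beta-actin control probe sets had a 3′/5′ ratio of 3.76, 3.34, 2.62 and 3.62, and those of Gapdh 1.28, 1.22, 1.11 and 1.44. Of the 34 genes tested in these 5 lists 0 passed by number in the limma fit, against 0.462% of all probe sets tested. An unadjusted p under 0.05 by number was reached by 12 of them, against 2388 of all 18625. With the treatment as a block 5 passed, against 2.3% of all. By treatment 0 of the 34 passed in the limma fit and 6 had an unadjusted p under 0.05, against 2.73% of all. The part of these differences in the members' values was not tested. The ovary label is borne by Gdf9, Zp3, Foxl2 and Amh, all above the filter in every sample.

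Over the 4 samples, the mean profile of the 8 genes on the log2 scale, centred on 0, was 0.15 in control 1, -0.11 in control 2, 0.22 in GDNF 1 and -0.26 in GDNF 2. Of 2740 genes with at least its range, those closest to it were LOC100912031, Trex1, Ttc12 and Eif5a, at a root mean square distance of 0.000632, 0.0103, 0.0161 and 0.0185 (log2, 4 samples). Trex1, for example, had 96.7, 80.2, 103 and 72.1. With 4 samples such likeness is a description alone.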

How the data were processed

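Biotin-labelled RNA of each of the 4 samples went on an Affymetrix array. The deposited values are linear array intensities (MAS5 signals, per the submitters' processing notes, with no version given). MAS5 subtracts a mismatch estimate, so dim signals are noisy, and scales each array: the mean after trimming was 125.03 to 125.04 and the median signal 36.7 to 41.1, so a change in total RNA cannot be seen. Control probe sets (57 of 31099) were left out. Names came from GEO's annotation of the platform, with 20826 carrying 1 symbol, 436 several and 9780 none in that table; for 20758 of the 20826 probe sets the Entrez identifier was in the RefSeq table of GRCr8, and 0 symbols changed. The log2(signal + 1) values of 18625 probe sets at or above the 40th percentile of the mean were compared by treatment and by replicate number with limma 3.58.1 in R 4.3.3 (lmFit, eBayes with trend), at an adjusted threshold of 0.05, all 4 samples in each fit. The script was tested on simulated data. The members, gene lists and naming rule (every member probe set, the 2 highest and 2 lowest of each list of pathway genes, and the 4 genes nearest in profile) were chosen with earlier results of these data known. List genes were taken by their brightest probe set, and no test was made over a list. Alternatives were the pseudocount, the filter, the scaling, eBayes without trend, a block, the choice of probe set and leaving out each sample. Lists of granulosa, stroma and theca, stratified epithelium, endothelium, smooth muscle, erythroid and hypoxia genes were also counted and had 0 of 43 genes past limma's adjusted threshold in either comparison. An unadjusted p under 0.05 was reached by 5 by treatment and 6 by number, against 508 and 2388 of all 18625 probe sets. Of the 5 by treatment, 4 were granulosa genes. Of the 8 granulosa genes tested, 4 were higher and 2 lower in GDNF without overlap. Over all probe sets tested 13.4% were higher and 16.6% lower without overlap by treatment. With a block, 0 passed by treatment and 1 by number, against 0.043% and 2.3% of all. That gene was Ndrg1 of the hypoxia list (log2 difference -0.48, limma adjusted p = 0.0308), named after its value was seen.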

Additional observations from a re-analysis of the deposited data

How the results depend on the processing

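The treatment comparison kept 0 passing probe sets in every alternative but the replicate block, which gave 8, none of them a member. Deviations of same-numbered samples correlated at r = 0.323 over 18625 probe sets, but with 2 samples a group the number is not shown to pair them. By treatment, 7 member probe sets changed direction when 1 sample was left out: Egr1 (-0.182 to 0.125), Atf3 (-0.215 to 0.577), Fos (-0.37 to 0.695), Egr2 (-0.185 to 0.438), Junb (-0.501 to 0.143) and the brightest (-0.552 to 0.203) and dimmest (-0.439 to 0.2) of Jun. By number, 86 probe sets passed, and 13 did with no filter, 2 without the trend, 224 with median centring and 429 with the treatment block, and 11 (without GDNF replicate 2) to 251 (without control replicate 1) with a sample left out. Median centring moved the median of all probe sets from -0.01 to 0.09. The median of the members by number, -0.41, was -0.295 with the filter at the 60th percentile, which leaves 5 genes, -0.31 with median centring and -0.325 with a pseudocount of 16, and ran from -0.467 to -0.25 with a sample left out. By number Ier2 (-0.033 without GDNF replicate 1 to 0.174) and Junb (-0.507 to 0.126 without GDNF replicate 2) changed direction. The cause of these shifts was not tested. Detection calls were not used here, so which dim probe sets were above background is not known.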
